A study of Mus musculus with 2 samples.

Results

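The genes described here are those of major histocompatibility complex (MHC) antigen presentation in the mouse liver. They were 10 of the 27998 genes in the count files, taken by symbol, and they were split into 6 genes of the class I route (the heavy chains H2-K1, H2-D1 and H2-T23, the light chain B2m, and Tap1 and Tapbp) and 4 genes of the class II route (Cd74, H2-Aa, H2-Ab1 and H2-Eb1). Their levels were read in 2 libraries of hepatocytes prepared by collagenase perfusion from C57BL/6 mice, an undamaged one (0 h) and a second collected 48 h after partial hepatectomy (PHx), an operation that takes out most of the organ (PHx48h). The labels give an age of 10 to 12 weeks and a normal diet, and they mark both libraries with the PHx protocol, although the 0 h library is described as healthy and undamaged. Each time was a single preparation from 1 liver, so no comparison has a replicate, no test was possible, and the intervals below are exact 95% intervals that cover counting error only. The libraries held droplet scRNA-Seq counts, in which each captured molecule carries a unique molecular identifier (UMI) and is counted once at its 3′ end.

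MHC class I molecules are carried by nearly all nucleated cells. A heavy chain pairs with beta-2 microglobulin and holds a short peptide, cut from proteins made inside the cell, for inspection by CD8+ T cells. MHC class II molecules are made mainly by professional antigen-presenting cells, such as B cells, dendritic cells and macrophages, and show peptides from ingested material to CD4+ T cells. In liver, the resident macrophages are the Kupffer cells, and resting hepatocytes carry class I and little or no class II.

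Of the 10 genes, 8 lie on chromosome 17 (GRCm38), in or near the mouse MHC: H2-K1 at chr17:33996017-34000347, Tapbp at chr17:33915899-33929292, Tap1 at chr17:34187553-34197225, H2-Ab1 at chr17:34257689-34269419, H2-Aa at chr17:34282744-34287823, H2-Eb1 at chr17:34305867-34316674, H2-D1 at chr17:35262730-35267499 and H2-T23 at chr17:36029773-36032855. B2m lies on chromosome 2, at chr2:122147686-122153083. The 250 bases before the annotated start of 4 members (RefSeq, GRCm38.p6) follow. H2-K1 and H2-D1 are shown as the heavy chains whose levels parted, B2m as their shared partner, and H2-Aa as a gene of the class II route. Each runs 5′ to 3′ on the strand of the gene and ends at the last base before the start. RefSeq's start of H2-D1 lies inside the span given above, so the 2 annotations place the start of this gene differently. Capitals mark matches to an NF-kB-type element (GGGATTCCC), a Y box (CTGATTGG, or CCAATCAG on the other strand), an interferon element (GAAANNGAA) or a cyclic AMP element (TGACGTCA).
H2-K1 (chr17:34000348-34000597, minus strand): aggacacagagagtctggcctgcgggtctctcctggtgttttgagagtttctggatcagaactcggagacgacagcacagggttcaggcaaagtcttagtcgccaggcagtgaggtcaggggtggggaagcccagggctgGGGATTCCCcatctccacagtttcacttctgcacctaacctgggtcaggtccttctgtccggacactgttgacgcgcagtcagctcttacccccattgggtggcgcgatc
H2-D1 (chr17:35262844-35263093, plus strand): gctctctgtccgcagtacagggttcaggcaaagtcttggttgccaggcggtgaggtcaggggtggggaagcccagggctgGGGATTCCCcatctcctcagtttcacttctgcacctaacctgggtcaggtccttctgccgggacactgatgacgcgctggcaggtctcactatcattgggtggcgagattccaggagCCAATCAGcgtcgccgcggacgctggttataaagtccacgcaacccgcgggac
B2m (chr2:122147437-122147686, plus strand): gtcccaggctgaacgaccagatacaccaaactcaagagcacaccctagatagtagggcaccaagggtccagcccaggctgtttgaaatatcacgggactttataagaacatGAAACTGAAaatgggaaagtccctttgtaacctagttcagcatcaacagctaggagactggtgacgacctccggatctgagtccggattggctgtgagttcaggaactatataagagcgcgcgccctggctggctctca
H2-Aa (chr17:34287824-34288073, minus strand): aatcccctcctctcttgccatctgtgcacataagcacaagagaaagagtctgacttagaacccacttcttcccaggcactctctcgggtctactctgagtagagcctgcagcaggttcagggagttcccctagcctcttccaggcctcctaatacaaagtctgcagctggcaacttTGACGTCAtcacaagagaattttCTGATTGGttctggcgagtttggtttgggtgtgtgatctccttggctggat
The NF-kB-type letters were found, on either strand, in 116 of 32851 promoter windows of 300 bases (0.353%), among them H2-K1, 110 bases before the start, and H2-D1, 170 bases before it. The Y box letters were in 1346 windows (4.1%), among them H2-Aa, H2-D1, H2-Eb1, H2-T23 and Tap1 before the start and H2-K1 9 bases after it, outside the stretch shown. RefSeq also holds a second start for H2-K1. Counted from that start, the NF-kB-type letters lie 124 bases before it and the Y box letters lie across it. The interferon element, sought only as the letters GAAANNGAA on either strand, was in 2812 windows (8.56%), among them B2m, 139 bases before the start, and H2-T23. Other spellings of an interferon element were not sought, so H2-K1 and H2-D1, which had no match to these letters, cannot be said to lack one. The cyclic AMP element was in 588 windows (1.79%), among them H2-Aa. The matches in H2-K1, H2-D1 and B2m do not overlap another match. A match is a description of the letters and not of a bound site, and Tapbp held no match in its window. The table held a promoter for 8 of the 10 members, and none for H2-Ab1 or Cd74.

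Levels are counts per 1000000 UMIs of genes outside the mitochondrial genome (CPM), so that the large mitochondrial share of some barcodes does not dilute the other genes. The 0 h library held 59202 barcodes and 96118593 UMIs, 6.24% of them mitochondrial, and the PHx48h library held 1586 barcodes and 18198719 UMIs, 37.0% mitochondrial. Of the 0 h barcodes, 52587 had under 2% mitochondrial UMIs and 3870 over 30%, and at PHx48h the numbers were 522 and 765. The median depth of these sets was 1413 and 1213.5 non-mitochondrial UMIs at 0 h and 5271.5 and 4411 at PHx48h. Transcripts of 10 hepatocyte markers summed to 99024 CPM in the under-2% set and 115207 CPM in the over-30% set at 0 h, and to 72024 and 110254 CPM at PHx48h, so hepatocyte RNA, which the labels name as the source, was present in every set. In the 0 h under-2% set the albumin transcript Alb varied between barcodes little more than sampling gives: at a fixed 1000 UMIs its variance was 1.13 times its mean, against 8.61 in the over-30% set, and at PHx48h the values were 2.60 and 6.97. Values at this fixed depth leave out shallower barcodes, which were 1399 of the 3870 over-30% barcodes at 0 h and 4 of the 765 at PHx48h. Whether the barcodes of the 0 h under-2% set hold intact cells was not tested, and levels given against it are levels against these barcodes. There were 148 barcode sequences present in both libraries.

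Other cell types were sought with fixed marker lists that hold no member gene. At 0 h the rule gave 252 macrophage-like barcodes, 189 of endothelial-like and 132 of stromal-like type, 42 T or NK cell-like, 13 B cell-like, 14 erythroid-like, 9 dendritic cell-like, 7 monocyte-like and 7 neutrophil-like, and 203 passed for more than 1 type and were kept apart as mixed. At PHx48h there were 15 macrophage-like, 32 endothelial-like and 17 stromal-like barcodes, 2 T or NK cell-like ones, 1 each of the dendritic cell-like, monocyte-like and cholangiocyte-like types, and 64 mixed ones. Of the 10 leading genes of each set at 0 h, 5 in the macrophage-like, 6 in the endothelial-like and 6 in the stromal-like set were markers that the rule used, so these genes only describe the sets. The macrophage-like set was led by Tmsb4x, an actin-binding gene of many cell types, followed by Cd5l, C1qc and C1qa, the endothelial-like set by Aqp1, Dnase1l3 and Ptprb, and the stromal-like set by Dcn, Ecm1 and Bgn. These barcodes still held hepatocyte transcripts: Alb was at 29519 CPM in macrophage-like, 37189 CPM in endothelial-like and 39409 CPM in stromal-like barcodes at 0 h, against 47844 CPM in the under-2% set. The part of hepatocyte RNA in the class I levels of these barcodes was not tested, and their levels are therefore also given per Alb UMI below.

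Class I and class II transcripts were distributed over the barcodes differently. At 0 h the library held 381988 heavy chain UMIs, and the 868 barcodes with any marker-defined type, 1.47% of all, held 2.42% of them. The same 868 barcodes held 77.9% of the 5670 class II UMIs. It took 18917 barcodes to reach 50% of the heavy chain UMIs, and 84 to reach 50% of the class II UMIs. At PHx48h the marker-defined barcodes, 8.39% of the library, held 13.5% of 15098 heavy chain UMIs and 81.7% of 399 class II UMIs, and 4 barcodes reached 50% of class II. The numbers of barcodes that reach 50% are not matched for UMI total. Fewer UMIs alone can need fewer barcodes, so only the shares compare the 2 routes.

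**Figure D1:**
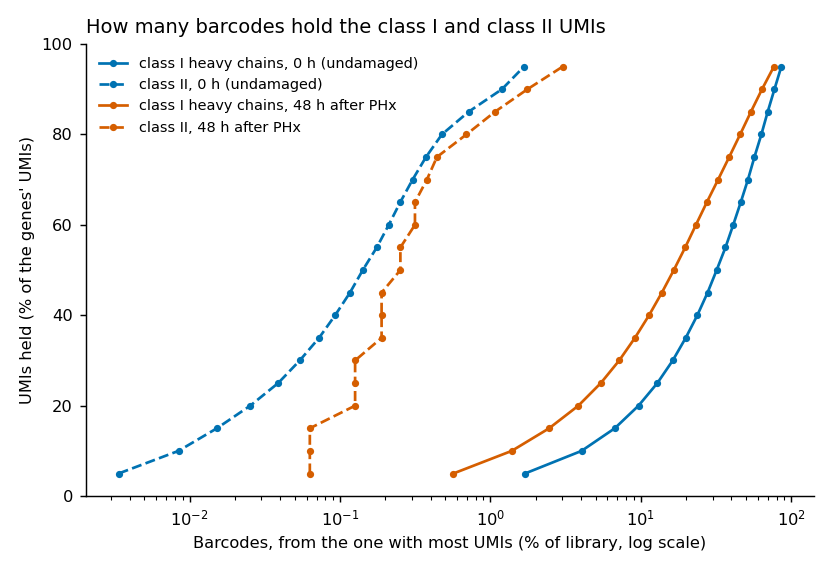
Cumulative share of heavy chain and class II UMIs (y axis, percent) against the percent of barcodes, richest first (x axis, log scale), in each library. The class II curves lie to the left, with 50% reached by 84 barcodes at 0 h and 4 at PHx48h, while the heavy chain curves need 18917 and 263 barcodes. The curves are not matched for UMI total, and fewer UMIs alone move a curve to the left.

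Among the class I genes the difference between times was largest for H2-K1, a classical heavy chain that presents peptides to CD8+ T cells. In the over-30% barcodes its level was 3769 CPM (3719 to 3819; 21779 UMIs) at 0 h and 1145 CPM (1116 to 1175; 5843 UMIs) at PHx48h. In the under-2% barcodes it was 3728 CPM (3714 to 3741; 293557 UMIs) and 445 CPM (422 to 469; 1396 UMIs). H2-K1 was thus 3.29-fold lower (3.20 to 3.39) at PHx48h in the over-30% barcodes, a log2 difference of -1.72, and its log2 difference was -3.07 (-3.14 to -2.99) in the under-2% barcodes. All genes together did not sit at 0 in these comparisons: the median log2 difference over all genes tested was 0.56 in the over-30% barcodes and 0.05 in the under-2% barcodes, and against that median H2-K1 in the over-30% barcodes was at -2.28. The 2 sets that share a time were alike at 0 h (over-30% to under-2% ratio 1.01, 0.997 to 1.03) and apart at PHx48h (2.57, 2.43 to 2.73). At a fixed 1000 UMIs, with shallower barcodes left out, H2-K1 was detected in 97.3% of under-2% and 97.7% of over-30% barcodes at 0 h, and in 39.7% and 70.3% at PHx48h.

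H2-D1, the other classical heavy chain measured, did not share this difference in the over-30% barcodes. Its level there was 430 CPM (413 to 447; 2486 UMIs) at 0 h and 395 CPM (378 to 413; 2018 UMIs) at PHx48h, a log2 difference of -0.12 (-0.21 to -0.04) that became -0.68 with TMM scaling. TMM moves all genes of a comparison by the same amount. That was -0.56 here, where the median over all genes was 0.56. In under-2% barcodes it was -0.34, where the median was 0.05, so TMM values there are not values against the median gene. In the under-2% barcodes H2-D1 was at 427 CPM (422 to 431) and 190 CPM (175 to 206), a log2 difference of -1.16. The number of H2-K1 UMIs per H2-D1 UMI was 8.73 and 8.76 in the under-2% and over-30% barcodes at 0 h and 2.34 and 2.90 at PHx48h. The last 400 bases of the H2-K1 transcript shared 0.57% of their 50-base stretches with another gene, which leaves nearly all of them distinct. For H2-D1 the share was 12.3%, with 80 genes, H2-K1 among them.

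H2-T23, which encodes the nonclassical heavy chain Qa-1 that presents a leader peptide to NK cell receptors, was rarer. It was at 72.2 CPM (417 UMIs) at 0 h and 94.05 CPM (480 UMIs) at PHx48h in the over-30% barcodes, which is a log2 difference of 0.38 (0.19 to 0.57) on the CPM scale and -0.18 with TMM scaling, so its direction there depends on the scaling. In the under-2% barcodes it was at 84.9 CPM (6688 UMIs) and 52.9 CPM (166 UMIs), a log2 difference of -0.68. Its transcript end shared 36.2% of its stretches with 75 other genes, so part of its reads could have been lost or assigned elsewhere by the authors' counting.

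B2m, the light chain that every class I molecule needs to reach the cell surface, was the most abundant member by UMI count in most sets. Its level was 3048 CPM (17614 UMIs) in over-30% barcodes at 0 h and 1430 CPM (7299 UMIs) at PHx48h, a log2 difference of -1.09 (-1.13 to -1.05). In the under-2% barcodes it was 5116 CPM (402856 UMIs) and 2323 CPM (7286 UMIs), a log2 difference of -1.14 (-1.17 to -1.11). Unlike H2-K1, B2m therefore differed between times by a like amount in both sets on the CPM scale, but not per Alb UMI. It was also lower in over-30% than in under-2% barcodes at both times, with ratios of 0.596 (0.587 to 0.605) and 0.616 (0.596 to 0.636). B2m UMIs outnumbered H2-K1 UMIs 1.37 to 1 in under-2% barcodes at 0 h and 5.22 to 1 at PHx48h, and in over-30% barcodes the ratios were 0.809 and 1.25. A 3′ count does not scale with transcript length, so these are ratios of molecules counted.

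Tap1 and Tapbp serve the loading of peptide: Tap1 is a subunit of the transporter that moves peptides into the endoplasmic reticulum, and Tapbp encodes tapasin, which holds the empty class I molecule to that transporter. Tapbp was at 166 CPM (959 UMIs) at 0 h and 99.3 CPM (507 UMIs) at PHx48h in over-30% barcodes, and at 88.0 CPM (6927 UMIs) and 22.3 CPM (70 UMIs) in under-2% barcodes. Its log2 differences were -0.74 (-0.90 to -0.58) and -1.98. Tap1 was at 21.8 CPM (126 UMIs) and 21.9 CPM (112 UMIs) in over-30% barcodes, where its log2 difference was 0.01 (-0.37 to 0.39), and -0.55 with TMM scaling. In under-2% barcodes Tap1 was at 15.7 CPM (1236 UMIs) and 6.70 CPM (21 UMIs), a log2 difference of -1.23. Both genes were higher in over-30% than in under-2% barcodes at each time: the ratios of Tapbp were 1.89 (1.76 to 2.02) at 0 h and 4.45 (3.46 to 5.80) at PHx48h, and those of Tap1 were 1.39 (1.15 to 1.67) and 3.28 (2.04 to 5.50).

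**Figure D2:**
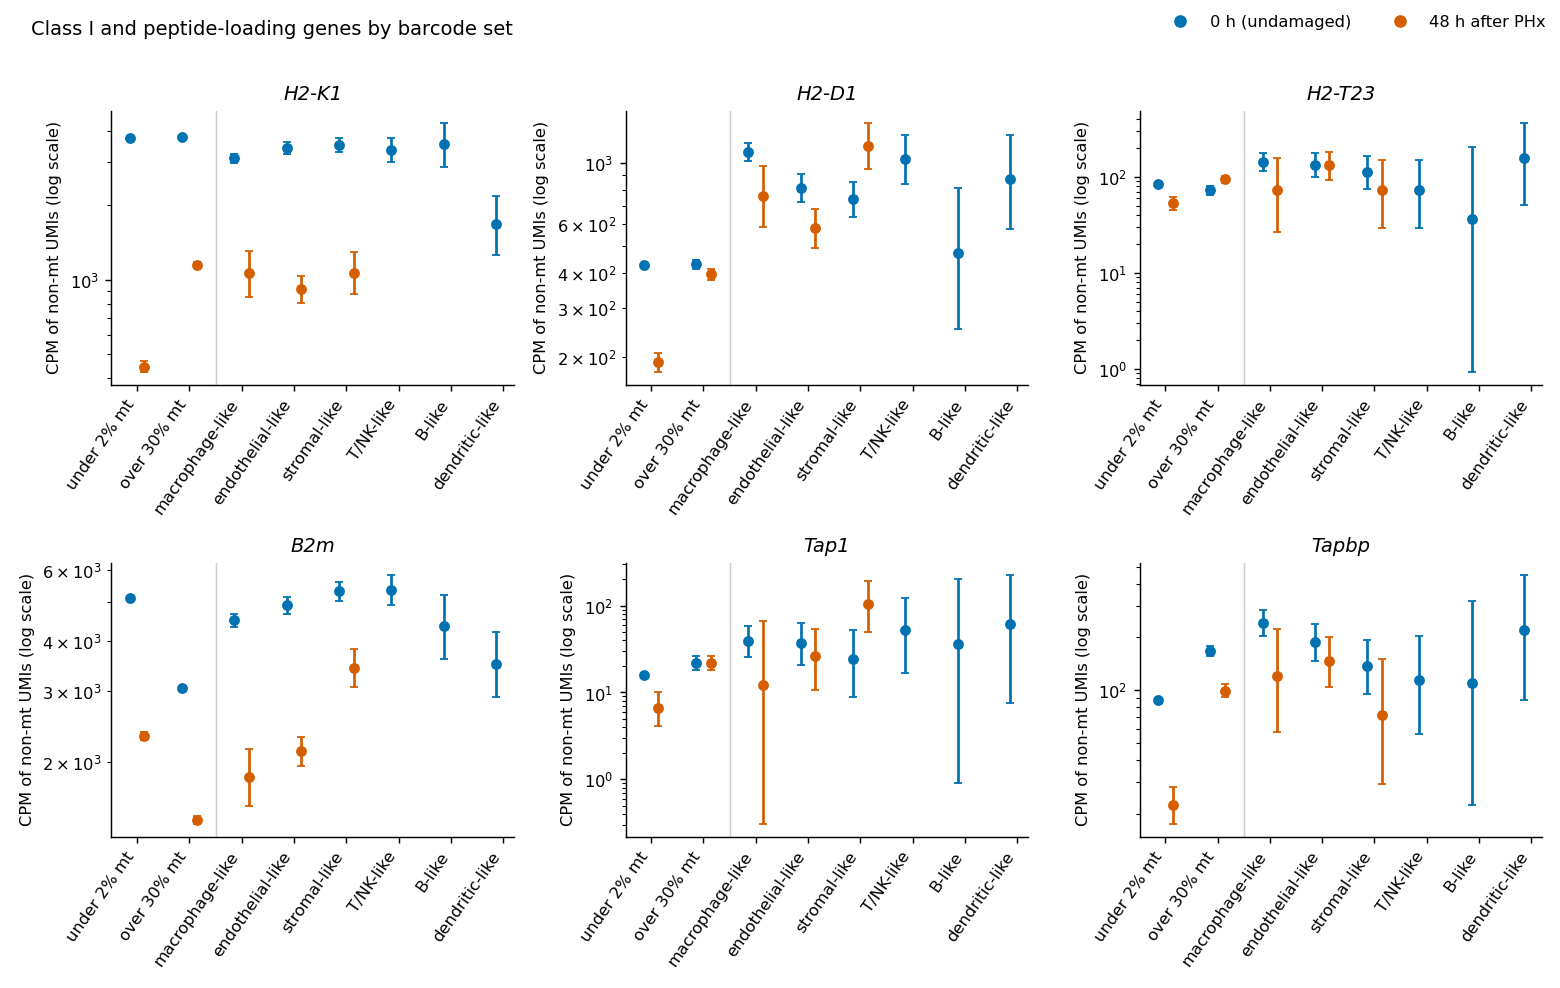
Level of each class I gene (CPM of non-mitochondrial UMIs, log scale) in the 2 mitochondrial sets and in marker-defined sets of at least 9 barcodes, at 0 h and PHx48h, with exact 95% counting intervals as bars. H2-K1 lies at 3728 and 3769 CPM in the mitochondrial sets at 0 h and at 445 and 1145 CPM at PHx48h, while H2-D1 in over-30% barcodes is at 430 and 395 CPM.

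Over the 10 members, 6 were at least 2-fold lower and 0 at least 2-fold higher at PHx48h in the over-30% barcodes, where 5.69% of 10205 genes tested were that much lower and 31.8% that much higher. The median log2 difference of the members was -1.41. The 6 genes were H2-K1, B2m and the 4 class II genes. In the under-2% barcodes 9 members were at least 2-fold lower and 0 higher, the exception being H2-T23, beside 21.8% lower and 24.3% higher of 11867 genes, and the members' median was -1.86. With a limit of 5% mitochondrial UMIs in place of 2%, 4 of the 10 (H2-K1, B2m, Tapbp and H2-Eb1) were at least 2-fold lower. H2-D1 was then at -0.56, H2-T23 at -0.49, Tap1 at -0.36 (-0.81 to 0.06), Cd74 at 0.58, H2-Aa at 0.0758 and H2-Ab1 at 0.0661. The share of all genes that much lower was not calculated at the 5% limit, so the 4 members cannot be set against it. Between the 2 mitochondrial sets of the same time, 0 of 10 members were at least 2-fold higher and 1, Cd74, was lower in over-30% barcodes at 0 h, beside 16.1% and 11.3% of all genes. At PHx48h 6 members had enough UMIs for this comparison, and 4 were higher and 0 lower, beside 37% and 6.35%. Summed over the 3 heavy chains, the level was 4271 CPM at 0 h and 1634 CPM at PHx48h in over-30% barcodes (log2 difference -1.39), and 4239 and 688 CPM in under-2% barcodes (-2.62).

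**Figure D3:**
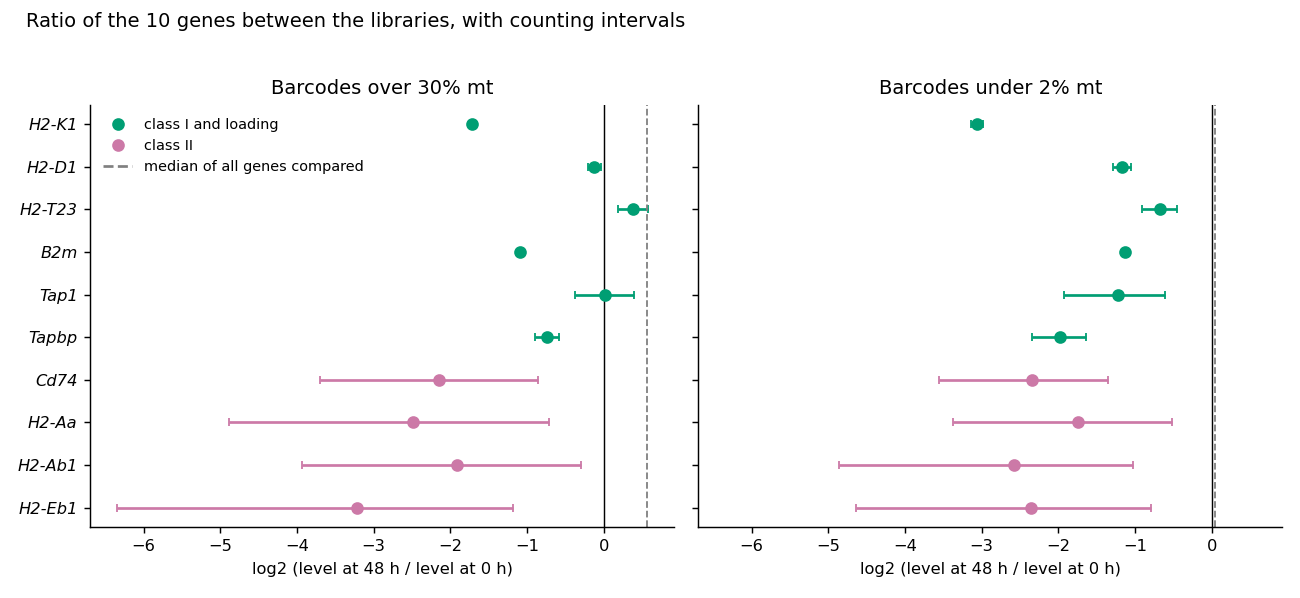
Log2 ratio of PHx48h over 0 h for each member in over-30% and under-2% barcodes, with exact 95% counting intervals; dashed lines mark the median over all genes tested (0.56 and 0.05). H2-K1 is at -1.72 and -3.07, B2m is at -1.09 and -1.14, H2-T23 in over-30% barcodes lies at 0.38 on this scale (-0.18 with TMM scaling), and the class II intervals are wide.

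The levels were then read in finer bands of mitochondrial share, over barcodes of no marker-defined type. At 0 h H2-K1 stayed between 3454 and 4132 CPM over 6 bands from 0 to 70% mitochondrial UMIs. At PHx48h it was 426 CPM under 1%, 568 CPM from 1 to 2%, 780 CPM from 2 to 10%, 743 CPM from 10 to 30%, 1102 CPM from 30 to 50% and 1192 CPM from 50 to 70%. In every one of these bands H2-K1 was lower at PHx48h. H2-D1 was between 400 and 433 CPM at 0 h, and at PHx48h it ran from 170 CPM under 1% to 411 CPM at 50 to 70%. B2m had the other order, from 5117 CPM under 1% to 2615 CPM at 50 to 70% at 0 h and from 2297 to 1271 CPM at PHx48h. Tapbp went from 87.5 to 172 CPM over the same bands at 0 h and from 20.6 to 111 CPM at PHx48h. On either side of the 30% limit, in the bands of 25 to 30% and 30 to 35%, H2-K1 was at 3538 and 3482 CPM at 0 h and at 841 and 1036 CPM at PHx48h. On either side of the 2% limit, in the bands of 1.5 to 2% and 2 to 2.5%, H2-K1 was at 3756 and 3786 CPM at 0 h and at 531 and 589 CPM at PHx48h.

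**Figure D4:**
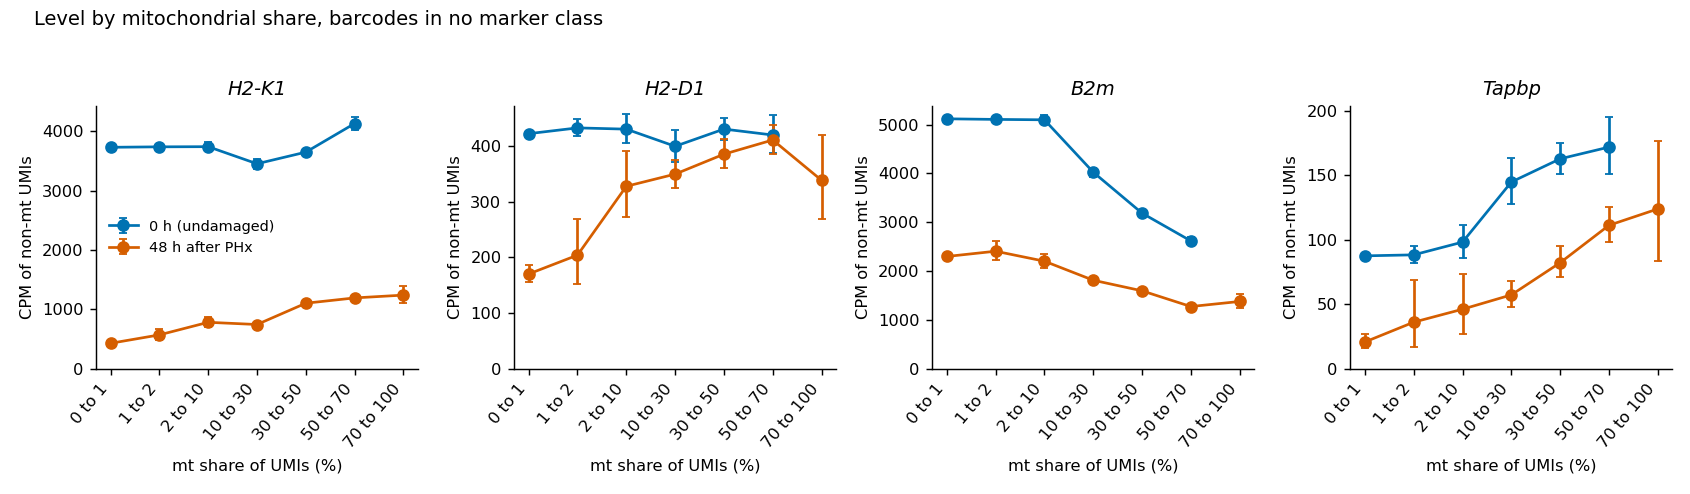
Level of H2-K1, H2-D1, B2m and Tapbp (CPM of non-mitochondrial UMIs, linear axis from 0) by band of mitochondrial share in barcodes of no marker-defined type, for bands of at least 20 barcodes, with exact 95% counting intervals. H2-K1 at 0 h stays between 3454 and 4132 CPM up to the 50 to 70% band, at PHx48h it runs from 426 to 1192 CPM over the same bands, and B2m runs the other way at both times.

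Set against albumin, the main secreted product of hepatocytes, the 2 mitochondrial sets of PHx48h came close together for H2-K1. There were 0.0201 H2-K1 UMIs for each Alb UMI in under-2% barcodes (0.0191 to 0.0212) and 0.0222 in over-30% barcodes (0.0216 to 0.0227). At 0 h the ratios were 0.0779 and 0.0838. Alb itself was at 22124 CPM in under-2% and 51662 CPM in over-30% barcodes at PHx48h, and at 47844 and 44963 CPM at 0 h. H2-D1 had 0.00892 UMIs per Alb UMI in under-2% and 0.00957 in over-30% barcodes at 0 h, and 0.00860 and 0.00765 at PHx48h. Per Alb UMI, H2-K1 thus stood apart between the times in both sets, and H2-D1 lay between 0.00765 and 0.00957 in all 4 sets. B2m had 0.107 UMIs per Alb UMI in under-2% and 0.0678 in over-30% barcodes at 0 h, and 0.105 and 0.0277 at PHx48h. On this scale B2m stood apart between the times in over-30% barcodes only.

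In the marker-defined types at 0 h, H2-K1 and H2-D1 had different orders. H2-K1 was at 3091 CPM (2953 to 3235) in macrophage-like, 3405 CPM (3221 to 3598) in endothelial-like, 3506 CPM (3276 to 3747) in stromal-like and 3357 CPM (3002 to 3742) in T or NK cell-like barcodes, none of them above the under-2% set. It was at 1677 CPM (1259 to 2188) in the 9 dendritic cell-like barcodes, where Alb was also lowest, at 18566 CPM. H2-D1 was higher than in under-2% barcodes of no type in every one of the 4 larger types. It was at 1092 CPM (1010 to 1179) in macrophage-like, 1033 CPM (840 to 1256) in T or NK cell-like, 811 CPM (722 to 908) in endothelial-like and 739 CPM (636 to 854) in stromal-like barcodes, which is 2.58 (2.38 to 2.79), 2.44 (1.98 to 2.97), 1.92 (1.71 to 2.14) and 1.75 (1.501 to 2.02) times the level in under-2% barcodes of no type. The intervals of macrophage-like and T or NK cell-like barcodes overlap, and so do those of endothelial-like and stromal-like barcodes. The number of H2-K1 UMIs per H2-D1 UMI was 2.83 in macrophage-like, 3.25 in T or NK cell-like, 4.198 in endothelial-like and 4.74 in stromal-like barcodes, all below the 8.73 of the under-2% set. The sum of the 3 heavy chains lay between 4327 and 4462 CPM in these 4 types, close to the 4239 CPM of the under-2% set. Per Alb UMI there were 0.0370 H2-D1 UMIs in macrophage-like, 0.0218 in endothelial-like and 0.0188 in stromal-like barcodes, against 0.00883 in under-2% barcodes of no type. For H2-K1 the numbers were 0.105, 0.0916 and 0.0890, against 0.0778, so the types lay closer to the pool in H2-K1 than in H2-D1 on this scale too.

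The other class I genes at 0 h followed H2-D1 in part. Tapbp was at 241 CPM in macrophage-like barcodes, 2.75 times (2.32 to 3.24) the level in under-2% barcodes of no type, at 187 CPM in endothelial-like and at 137 CPM in stromal-like barcodes. Tap1 was at 39.6 CPM in macrophage-like, 37.5 CPM in endothelial-like and 51.6 CPM in T or NK cell-like barcodes, the last from 5 UMIs. H2-T23 was at 143 CPM (115 to 177) in macrophage-like and 134 CPM in endothelial-like barcodes. B2m ranged from 4499 CPM in macrophage-like to 5350 CPM in T or NK cell-like barcodes, around the 5116 CPM of the under-2% set. By the rule of at least 2-fold with a counting interval off 1, 7 members were higher in macrophage-like barcodes than in under-2% barcodes of no type, beside 27.4% of all genes. There were 3 such members in endothelial-like barcodes, beside 18.1% of genes, 3 in T or NK cell-like barcodes, beside 10.3%, and 0 in stromal-like barcodes, beside 9.71%. In macrophage-like barcodes they were H2-D1, Tap1, Tapbp and the class II genes Cd74, H2-Aa, H2-Ab1 and H2-Eb1. In endothelial-like barcodes they were Tap1, Tapbp and Cd74 (6 UMIs), and in T or NK cell-like barcodes H2-D1, Tap1 and Cd74 (3 UMIs). The opposite call was made for 0 members in each type, beside 0.988%, 0.458%, 1.25% and 0.372% of genes.

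At PHx48h H2-K1 was lower than at 0 h in these types too. It was at 1062 CPM (851 to 1308) in macrophage-like, 916 CPM (805 to 1039) in endothelial-like and 1069 CPM (873 to 1297) in stromal-like barcodes, which is 0.343 (0.274 to 0.425), 0.269 (0.234 to 0.309) and 0.305 (0.246 to 0.375) times the level at 0 h. H2-D1 was at 760 CPM (584 to 972), 582 CPM (494 to 681) and 1152 CPM (948 to 1388), which is 0.696 (0.529 to 0.902), 0.718 (0.587 to 0.874) and 1.56 (1.22 to 1.98) times. The stromal-like set thus differed in direction from the other 2 for H2-D1, and it was also the set with the highest Tap1, at 104 CPM (49.8 to 191) from 10 UMIs. B2m was at 1834 CPM in macrophage-like, 2122 CPM in endothelial-like and 3426 CPM in stromal-like barcodes. There were 1.40 (0.999 to 1.96) H2-K1 UMIs per H2-D1 UMI in macrophage-like, 1.57 (1.28 to 1.94) in endothelial-like and 0.928 (0.703 to 1.22) in stromal-like barcodes. At the same rule 6 of 10 members compared in macrophage-like, 2 of 6 in endothelial-like and 1 of 5 in stromal-like barcodes were lower at PHx48h and 0 were higher. Of all genes, 8.5%, 10.1% and 17.5% were lower and 9.67%, 20.6% and 24.1% higher. Against under-2% barcodes of no type in the same library, H2-D1 was 4.396 (3.33 to 5.72) times as high in macrophage-like, 3.37 (2.80 to 4.03) times in endothelial-like and 6.66 (5.38 to 8.19) times in stromal-like barcodes. By the same rule 6 of 8 members compared were higher in macrophage-like barcodes, beside 13.5% of genes, 5 of 6 in endothelial-like barcodes, beside 25.6%, and 4 of 6 in stromal-like barcodes, beside 11%. In these comparisons 0 members were lower, beside 4.33%, 2.84% and 1.71% of genes. These counts hold for the under-2% reference only. In CPM, H2-K1 in the 3 types was not above its level in over-30% barcodes of the same library, while H2-D1 was. Alb was at 19291, 28634 and 18749 CPM in these barcodes at PHx48h. Per Alb UMI, H2-K1 was at 0.0550, 0.0320 and 0.0570, against 0.0198 in under-2% barcodes of no type, and H2-D1 at 0.0394, 0.0203 and 0.0615, against 0.00780. These sets hold 15, 32 and 17 barcodes. Of the 32 endothelial-like barcodes 11 had over 30% mitochondrial UMIs, against 10 of 189 at 0 h. The lowest summed level of a type's own markers in 1 barcode was 888, 522 and 2249 CPM in the 3 types. At 0 h it was 2156, 1607 and 1965 CPM. The part of these differences in the ratios between times was not tested.

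Class II transcripts marked a few barcodes and were near absent elsewhere. Cd74, whose gene lies outside the MHC, is the invariant chain that blocks the class II groove until peptide is loaded. It was at 1851 CPM (1122 UMIs) in macrophage-like, 4321 CPM (119 UMIs) in B cell-like and 10059 CPM (324 UMIs) in dendritic cell-like barcodes at 0 h. In under-2% and over-30% barcodes it was at 12.9 CPM (1018 UMIs) and 5.19 CPM (30 UMIs). The chains of the class II heterodimers had the same order. H2-Aa, the I-A alpha chain, was at 835 CPM (506 UMIs), 1162 CPM (32 UMIs) and 4812 CPM (155 UMIs) in macrophage-like, B cell-like and dendritic cell-like barcodes. H2-Ab1, its beta chain, was at 728 CPM (441 UMIs), 1162 CPM (32 UMIs) and 5154 CPM (166 UMIs). H2-Eb1, the I-E beta chain, was at 666 CPM (404 UMIs), 617 CPM (17 UMIs) and 3881 CPM (125 UMIs), so in this gene alone the B cell-like level was not above the macrophage-like one.

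Summed over the 4 genes, class II was at 23906 CPM in dendritic cell-like, 7262 CPM in B cell-like and 4080 CPM (3920 to 4244) in macrophage-like barcodes at 0 h. In the 7 monocyte-like barcodes it was at 3337 CPM from 58 UMIs, of which 1 barcode held 46.6%, and at 2178 CPM without that barcode. In macrophage-like barcodes that was 312-fold (290 to 336) the 13.1 CPM of under-2% barcodes of no type. Endothelial-like barcodes, with 34.8 CPM from 13 UMIs, and stromal-like barcodes, with 32.3 CPM from 8 UMIs, were at 2.66 (1.41 to 4.58) and 2.47 (1.07 to 4.89) times that level. The summed macrophage markers were also higher there, at 104 and 101 CPM, against 24.2 CPM in under-2% barcodes of no type. The part of macrophage transcripts in these class II values was not tested. A class II UMI was found in 92.9% of macrophage-like, 92.3% of B cell-like and 100% of dendritic cell-like barcodes, against 6.88% of endothelial-like, 5.30% of stromal-like, 7.14% of T or NK cell-like and 1.51% of under-2% barcodes of no type. At a fixed 1000 UMIs per barcode, which removes the difference between median depths of 2185, 1904, 1701 and 1412 UMIs, the shares were 82.5% in macrophage-like, 2.70% in endothelial-like, 3.85% in stromal-like and 1.08% in under-2% barcodes of no type. Neutrophil-like barcodes, which should lack class II, held 0 class II UMIs in 7 barcodes, and the 14 erythroid-like barcodes held 1. With 11266 non-mitochondrial UMIs in all, the neutrophil-like barcodes were too few to tell 0 from the level of under-2% barcodes of no type.

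**Figure D5:**
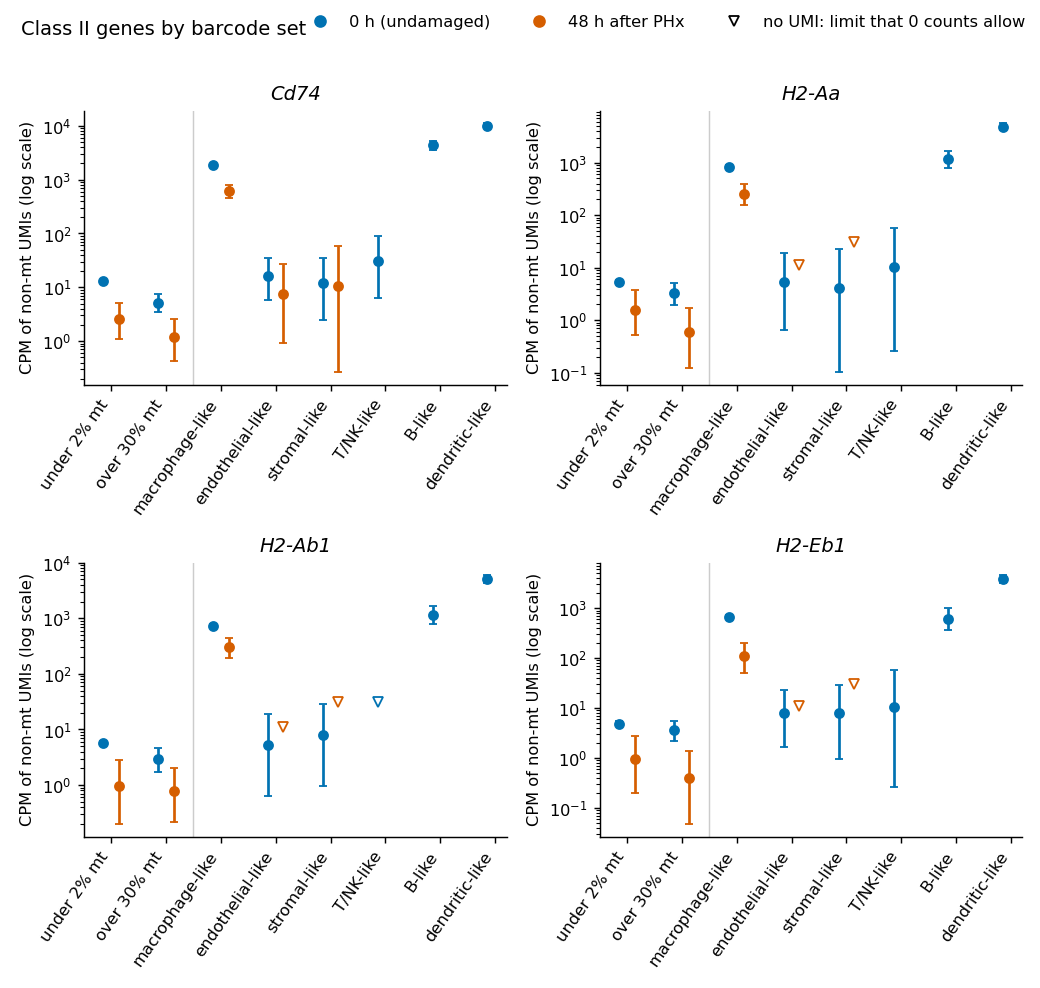
Level of each class II gene (CPM, log scale) in the same sets, with exact 95% counting intervals; open triangles mark sets with 0 UMIs, drawn at the level that 3 UMIs would give. Macrophage-like, B cell-like and dendritic cell-like sets lie between 617 and 10059 CPM at 0 h, and both mitochondrial sets lie at 12.9 CPM or below.

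In macrophage-like barcodes and in both mitochondrial sets the class II level was lower at PHx48h. In macrophage-like barcodes Cd74 was at 615 CPM (51 UMIs), H2-Ab1 at 302 CPM (25 UMIs), H2-Aa at 253 CPM (21 UMIs) and H2-Eb1 at 109 CPM (9 UMIs). Their sum, 1279 CPM (1047 to 1547), was 0.313 times (0.256 to 0.381) that at 0 h. It rested on few cells: 1 of the 15 barcodes held 50% of the 106 UMIs, and without it the level was 681 CPM (510 to 891). Per barcode the lowest, median and highest numbers of class II UMIs were 0, 2 and 53 at PHx48h and 0, 6 and 90 at 0 h, although the PHx48h barcodes were the deeper ones. At 1000 UMIs per barcode, 40% (16.3 to 67.7) of macrophage-like barcodes held a class II UMI at PHx48h.

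In the mitochondrial sets class II was at the edge of detection at PHx48h. Cd74, H2-Aa, H2-Ab1 and H2-Eb1 gave 6, 3, 4 and 2 UMIs in 765 over-30% barcodes, and 8, 5, 3 and 3 UMIs in 522 under-2% barcodes. Their log2 differences from 0 h in over-30% barcodes were -2.14 (-3.70 to -0.85), -2.48 (-4.88 to -0.72), -1.91 (-3.94 to -0.29) and -3.21 (-6.35 to -1.18). The sum was 15.1 CPM at 0 h and 2.94 CPM at PHx48h in over-30% barcodes, and 28.9 and 6.06 CPM in under-2% barcodes. Leaving out the marker-defined barcodes, the 0 h values were 8.37 and 13.1 CPM and the PHx48h values 2.63 and 5.88 CPM, and 1019 of the 2276 class II UMIs of the 0 h under-2% set lay in barcodes of no type. The direction in low-mitochondrial barcodes depended on the limit: under 5% instead of under 2%, the log2 difference of the sum was 0.19, and 3 barcodes then held 179 of the 273 class II UMIs at PHx48h. Macrophage transcripts were also present in these sets, at a summed marker level of 39.6 CPM in both at 0 h and of 41.1 CPM in under-2% and 27.4 CPM in over-30% barcodes at PHx48h, and their part in the class II values was not tested.

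Some class II-rich barcodes met no marker rule. At 0 h, 158 barcodes held at least 10 class II UMIs, and 12 of them, with 268 class II UMIs, had no marker-defined type. Beside the members themselves their leading genes included Tyrobp, Cd52, Ctss, Irf8 and Plac8, which are genes of white blood cells. At PHx48h 7 barcodes reached 10 UMIs. The dendritic cell-like barcode held 76, the richest mixed barcode 53 and the richest macrophage-like barcode 53. One barcode of no type, with 41 of the 42 class II UMIs among such barcodes at 2 to 30% mitochondrial UMIs, had Cd74, Tyrobp, Irf8, Ly6c2, Siglech and Bcl11a among its leading genes, of which Siglech and Bcl11a are known from plasmacytoid dendritic cells.

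The rest of the class I and class II routes did not share 1 direction in the over-30% barcodes, where TMM scaling moves every log2 difference below by -0.56. Of 12 other class I heavy chains on the list, 11 were in the files and 8 could be compared: 2 were at least 2-fold higher and 0 lower at PHx48h, with a median log2 difference of 0.60, beside 31.8% higher and 5.69% lower of all genes tested and their median of 0.56. H2-Q6 was at 8.65 CPM at 0 h and 26.4 CPM at PHx48h (log2 1.61), and H2-T22 at 37.9 and 87.6 CPM (1.21), but 40.2% and 63.5% of their transcript ends are shared with other genes. Cd1d1, which presents lipids to NKT cells, was at 248 and 176 CPM (-0.49), and Mr1, which presents vitamin B metabolites, at 2.08 and 1.96 CPM (-0.08). In under-2% barcodes 10 genes of this list could be compared, and 0 were at least 2-fold higher and 4 lower, with a median of -0.22. Of all genes there, 24.3% were higher and 21.8% lower, and their median was 0.05. H2-Q10, a secreted heavy chain made by the liver and named here after its values were seen, was at 2153 and 2930 CPM in over-30% barcodes (0.44, which is below the median of all genes and below 0 with TMM scaling) and at 2125 and 1924 CPM in under-2% barcodes (-0.14). There were 1.75 H2-K1 UMIs per H2-Q10 UMI in both sets at 0 h, and 0.391 in over-30% and 0.231 in under-2% barcodes at PHx48h.

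Of 12 other genes of class I peptide supply, 3 were at least 2-fold higher and 2 lower in over-30% barcodes, with a median log2 difference of -0.01, beside the same 31.8%, 5.69% and 0.56 over all genes. The chaperone Calr was at 2140 CPM at 0 h and 830 CPM at PHx48h (-1.37), and Pdia3, a disulfide isomerase of the peptide-loading complex, at 689 and 338 CPM (-1.03). The immunoproteasome subunit Psmb8 was at 12.5 and 44.3 CPM (1.83), and the proteasome activator Psme1 at 45.3 and 138 CPM (1.61). In under-2% barcodes 5 of these 12 were at least 2-fold higher and 7 lower, with a median of -1.26, beside 24.3% higher and 21.8% lower of all genes and their median of 0.05.

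Only 3 of 12 other class II pathway genes could be compared in over-30% barcodes. The lysosomal thiol reductase Ifi30 was at 10.2 and 26.8 CPM (1.39), the protease Lgmn at 24.2 and 36.4 CPM (0.59) and the protease Ctsl at 693 and 569 CPM (-0.29). In under-2% barcodes 7 genes of this list could be compared, and 1 was at least 2-fold higher and 5 lower, with a median of -0.96. Over all genes there, the values were 24.3%, 21.8% and 0.05. Of 15 interferon response genes, which are induced with class I during infection, 14 could be compared in over-30% barcodes. There 1 was at least 2-fold higher and 1 lower, and the median was 0.10, again beside 31.8%, 5.69% and 0.56. Isg15 was at 3.63 and 12.5 CPM (1.79), Irf9 at 19.0 and 11.8 CPM (-0.70) and Ifit1 at 7.61 and 2.35 CPM (-1.70). In under-2% barcodes the counts were 3 higher and 4 lower of 15, with a median of -0.30, beside 24.3%, 21.8% and 0.05 over all genes.

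The genes whose levels were most like those of the summed heavy chains over 13 barcode sets of both libraries, out of 9653 genes, were Myo6 (Pearson r 0.976 of log2 levels), Tmem30a (0.967), Dirc2 (0.959), Enpp5 (0.957) and Mcfd2 (0.948). For the summed class II genes they were Lyz2 (0.983), Ctss (0.981), Ccl6 (0.976), C1qa (0.971) and Ly86 (0.971), of which C1qa was used to choose the macrophage-like barcodes. The 13 sets share 2 libraries, so these values describe likeness in these data only.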

How the data were processed

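The deposited files held UMI counts per gene and barcode from 10X Genomics Single Cell 3′ v2 libraries, which the authors made with Cell Ranger (version not given in the sources used here), with mm10 named in the submitters' processing notes. The smallest barcodes held 1183 UMIs at 0 h and 4578 UMIs at PHx48h. No barcode was removed, because the mitochondrial limit of the study is not given in the sources used here. The paper reports a far smaller number of hepatocytes kept at 0 h, so most of the 0 h barcodes counted here were left out there. No doublet caller was run: barcodes of several types were kept apart, and leaving out the deepest 1% was an alternative. Counts of 13 mitochondrial genes were set aside and all other counts were summed per set and scaled to CPM. A barcode was given a type when its summed markers exceeded the under-2% pool of its library with a Poisson tail of at most 1e-06 and at least 3 different markers. Of 114 markers, 107 were found in the files used here, and of 51 pathway genes 50. Intervals of levels are exact Poisson, of shares exact binomial (Clopper-Pearson), and of ratios exact conditional binomial, at 95%. Genes with at least 20 UMIs over both sets were compared, with a limit of 2-fold, and comparisons with marker-defined types also required an interval off 1, which was added after seeing the data. Shares of barcodes at a fixed depth were taken after thinning to 1000 non-mitochondrial UMIs (seed 1), and barcodes with fewer were left out of them. Likeness used log2(CPM + 10) over sets of at least 20 barcodes and genes of at least 200 UMIs. The genes named were all 10 members and, of each other list, the 2 highest and 2 lowest log2 differences in over-30% barcodes, or all where fewer could be compared; 1 gene that this rule names is not reported here. The members and lists were chosen with earlier results of these data known. Python 3.11.15, NumPy 2.4.6, SciPy 1.17.1, pandas 2.3.3, R 4.3.3 and edgeR 4.0.16 (TMM scaling only) were used, and the calculation was tested on simulated data. Promoter sequences are from RefSeq, and positions are from the GRCm38 annotation.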

Additional observations from a re-analysis of the deposited data

How the results depend on the processing

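No paired analysis was possible because each time is 1 library. With no replicate, nothing separates the times from differences between 2 preparations, and the depths differ, with smallest barcodes of 1183 and 4578 UMIs. Across all alternatives for the 6 summed differences between times, 65 of 66 were lower at PHx48h, among them 6 without the 148 shared barcode sequences, which was added after seeing the data. All of these alternatives reuse the same 2 libraries. In under-2% barcodes the limit of 1000 UMIs removed no barcode, so it repeated the main values there. The log2 difference of the heavy chains in over-30% barcodes was -1.65 over all UMIs, -1.66 without the 20 most abundant genes, -1.95 with TMM and -1.44 with a limit of 50% mitochondrial UMIs. In under-2% barcodes it was -2.91 without those 20 genes, -2.97 with TMM, -2.55 as a mean of single-barcode CPM, -2.69 under 1% and -2.27 under 5% mitochondrial UMIs. For B2m in over-30% barcodes the values were -1.35 over all UMIs, -1.37 without the 20 genes, -1.65 with TMM, -0.998 as a mean of single-barcode CPM, -1.03 over 50% and -1.14 at 1000 or more UMIs. For B2m in under-2% barcodes they were -1.43, -1.48 and -1.08 (without the 20 genes, with TMM, under 5%). Summed class II in under-2% barcodes was at -0.92 under 1%, at -1.15 without marker-defined barcodes and at 0.19, the other direction, under 5% mitochondrial UMIs. With that last limit Cd74 was at 0.58, H2-Aa at 0.0758 and H2-Ab1 at 0.0661: 93 further barcodes at PHx48h held 254 class II UMIs, 213 of them in marker-defined barcodes, and 3 barcodes held 179 of the 273 in all. H2-T23 in over-30% barcodes was at -0.18 with TMM.

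With at least 5 markers required, 13 T or NK cell-like barcodes remained at 0 h, their class II level was 0 CPM, and class II was 4305 CPM in macrophage-like and 80.4 CPM in endothelial-like barcodes. Giving barcodes of several types to the type of smallest tail gave 56 endothelial-like and 48 stromal-like barcodes at PHx48h, with class II at 223 CPM in endothelial-like and 297 CPM in stromal-like barcodes at 0 h and at 967 CPM in macrophage-like and 34.0 CPM in endothelial-like barcodes at PHx48h. Endothelial-like class II was 81.6 CPM at 0 h with a tail of 1e-09 and 0 CPM at PHx48h with 1e-04. Without the richest barcode, a choice made after seeing the data, macrophage-like class II was 681 CPM at PHx48h. In over-30% barcodes 3244 genes were at least 2-fold higher, against 2109 with at least 100 UMIs, 5265 with no filter and 1575 with TMM, and 581 were lower, against 383, 1695 and 1473. In under-2% barcodes 2589 were lower, against 5679 with no filter. The causes of these differences were not tested.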
